A study of Homo sapiens with 12 samples.

Results

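The activator protein 1 (AP-1) family was followed through 10 genes, JUN, JUNB, JUND, FOS, FOSB, FOSL1, FOSL2, BATF, BATF3 and ATF3. They were the rows of the deposited FPKM table (fragments per kilobase of exon, scaled to library size) that carry these names, out of 60671 genes listed. The mean over all 12 libraries reached 1 FPKM, the minimum for testing, in 7 of the 10. FOSB, FOSL2 and BATF stayed below it and are given by their values only.

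AP-1 is not one protein but a set of dimers. JUN, FOS, BATF and ATF proteins share a basic region that grips DNA and a leucine zipper through which they pair, so the make-up of the dimer depends on which members a cell contains. JUN proteins can pair with themselves, whereas FOS proteins need a partner such as JUN. Several of these genes are immediate early genes, switched on by growth factors, T cell receptor signals or stress kinases, and the JUN protein gave its name to the JNK kinases (c-Jun N-terminal kinases) that phosphorylate it.

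The study asked which genes accompany the effect of PTPN21, a tyrosine phosphatase with a FERM domain, on cells given vincristine (VCR), a drug that blocks microtubule assembly. All libraries were labelled Jurkat, a line established from a T cell acute lymphoblastic leukemia, and were made after 48 h of treatment. The 4 groups of 3 libraries were control cells with the solvent DMSO (NC + DMSO), control cells with VCR (NC + VCR), PTPN21-overexpressing cells with DMSO (PTPN21 + DMSO) and PTPN21-overexpressing cells with VCR (PTPN21 + VCR). Per the study's methods, overexpression came from a lentiviral construct in which the SFFV promoter drives FLAG-tagged PTPN21, so its level is set by a viral promoter and not by the cell's own gene. The labels call the control cells WT, while the methods describe a GFP vector. Neither source used here gives the VCR dose of these libraries.

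PTPN21 itself was at 0.0767, 0.0212 and 0.0934 FPKM with NC + DMSO and at 0.569, 0.16 and 0.372 FPKM with NC + VCR. It was at 7.93, 10.5 and 8.02 FPKM with PTPN21 + DMSO and at 6.53, 6.34 and 4.34 FPKM with PTPN21 + VCR, above every control library. In PTPN21 cells the VCR libraries lay below the DMSO libraries without overlap, with a difference of -0.55 that did not pass (adjusted p = 0.077). Sequencing depth, read from the steps between the lowest FPKM values of 8702 single-exon genes, came to about 29000000 to 35800000 fragments in control libraries and 41100000 to 47700000 in PTPN21 libraries. The steps fix this only up to a whole-number factor, searched within a limited range and not settled for any library. Another reading, with a factor of 2 throughout, is 14500000 to 23900000 over all 12 libraries. As estimated, depth and construct varied together and cannot be told apart. On the first reading, JUN rested on about 2763 to 17717 fragments per library and BATF on at most 49.

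The labelled cell type was less clear. Of 11 T cell markers, 9 were under 1 FPKM in all 12 libraries, among them CD3E, CD2, ZAP70 and LAT, and CD247 and LCK were at 0 in every one. CD3D alone was high, at 61.8 to 140 FPKM. Genes not typical of T cells were present, with KRT8 at 236 to 1186, KRT18 at 91.9 to 437, EPCAM at 58.3 to 123 and SPI1 at 6.56 to 30 FPKM. The libraries are therefore called here by their labels. The sum of 6 epithelial and fibroblast markers was 387 to 588 FPKM with NC + DMSO and 510 to 579 with PTPN21 + DMSO, and 1154 to 1359 with NC + VCR and 1203 to 1676 with PTPN21 + VCR, while COL1A1, COL1A2 and DCN stayed under 1 FPKM. A set of 6 erythroid genes, chosen after these values were seen, summed to 249 to 360 FPKM with DMSO and 104 to 155 FPKM with VCR. GATA1, a master factor of red cell precursors, was at 57.4 to 106 FPKM with DMSO and 13.5 to 25.3 FPKM with VCR. RHAG, of the same set, did not go down, at 35.6 to 70.4 FPKM with DMSO and 54.8 to 99 FPKM with VCR. One of the 6, NFE2, is also among the basic leucine zipper factors described below. These shifts accompanied VCR in both constructs, and their part in the AP-1 results was not tested. Myeloid markers (6 genes) summed to 23.3 to 27.7 FPKM with DMSO and 28.9 to 44.3 FPKM with VCR, and B cell markers (5 genes) to at most 1.84 FPKM. Of the myeloid markers, SPI1 was at 6.56 to 14 FPKM with DMSO and 17.3 to 30 FPKM with VCR. LYZ (11.9 to 17 and 9.08 to 13.5 FPKM) and ITGAM (1.08 to 3.39 and 0.948 to 1.53 FPKM) overlapped between treatments. CD14, CSF1R and MPO stayed under 1 FPKM in all 12 libraries.

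JUN, JUND and ATF3 carry the palindrome to which AP-1 and CREB/ATF dimers bind, or a near copy of it, before a start listed by RefSeq. Their promoters are shown because JUN and ATF3 were the members that rose with VCR while JUND did not. Each line gives the 250 bases before the start listed by RefSeq (GRCh38.p14), read 5′ to 3′ on the gene's strand. Capitals mark the match to TGACNTCA. The JUN window is chr1:58784048-58784297 on the minus strand, the ATF3 window (the first of 2 starts listed) is chr1:212565157-212565406 on the plus strand, and the JUND window is chr19:18281623-18281872 on the minus strand.
JUN: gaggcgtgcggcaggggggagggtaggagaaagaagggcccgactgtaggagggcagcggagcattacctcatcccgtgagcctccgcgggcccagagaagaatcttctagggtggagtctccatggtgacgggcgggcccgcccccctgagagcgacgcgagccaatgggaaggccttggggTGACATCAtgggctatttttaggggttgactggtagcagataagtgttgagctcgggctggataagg
ATF3: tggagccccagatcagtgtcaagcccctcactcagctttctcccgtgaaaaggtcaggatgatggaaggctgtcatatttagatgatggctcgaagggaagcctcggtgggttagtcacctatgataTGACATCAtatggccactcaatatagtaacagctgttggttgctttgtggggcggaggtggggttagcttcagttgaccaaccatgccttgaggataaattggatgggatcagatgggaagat
JUND: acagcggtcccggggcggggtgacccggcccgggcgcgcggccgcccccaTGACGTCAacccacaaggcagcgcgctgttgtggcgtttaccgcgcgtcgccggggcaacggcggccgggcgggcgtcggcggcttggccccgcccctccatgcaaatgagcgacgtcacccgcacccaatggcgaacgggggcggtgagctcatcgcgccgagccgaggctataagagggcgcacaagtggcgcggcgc

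JUN and ATF3 held the same 8 letters, TGACATCA, from -67 to -60 in JUN and from -123 to -116 in ATF3, counting the base before the start as -1. The window of the other ATF3 start listed held no match to TGACNTCA, and which start these messages used was not tested. JUND held the perfect palindrome TGACGTCA, from -200 to -193, a motif that is also a match to TGACNTCA. On either strand, TGACNTCA occurred in 6.87% and TGACGTCA in 1.65% of all 35116 promoter windows of this length. Of the 10 genes, 8 had an entry in the promoter table, BATF3 and FOSL1 being without one. TGANTCA is a pattern that includes the classical AP-1 site but is wider. It occurred in none of these 8 genes' windows and in 6.57% of all windows. The CArG box, bound by serum response factor, was also in none of them, against 1.16% of all. Sites more than 250 bases before a start were not scanned. GGGCGG, an SP1 site, lay in the windows of JUN, JUND, FOS, FOSB, FOSL2, BATF and ATF3 (42.6% of all windows), and CCAAT in those of JUN, JUNB, JUND and ATF3 (32% of all). These are letters in a window, not evidence of binding.

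In the genome the family is scattered, with a pair of close neighbours. By the GENCODE release 29 annotation of the listed Ensembl genes, ATF3 (ENSG00000162772, chr1:212565334-212620777) and BATF3 (ENSG00000123685, chr1:212686418-212699985) face each other 65.6 kb apart on chromosome 1. JUN (ENSG00000177606, chr1:58780788-58784327) is a gene of 1 exon, as is JUNB (ENSG00000171223, chr19:12791496-12793315). By these positions the JUN window shown above lies within the JUN exon, so GENCODE and RefSeq place the start of JUN differently. FOS (ENSG00000170345, chr14:75278774-75282230) and BATF (ENSG00000156127, chr14:75522425-75547015) lie on chromosome 14 on either side of JDP2, which encodes a partner and repressor of JUN. Exons of HOOK2 on the opposite strand overlap JUNB, and HOOK2 was at 6.68 to 19.1 FPKM. Whether strand was used in counting is not given in the sources used here, so reads of JUNB and HOOK2 may not be told apart.

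JUN and ATF3 had the highest mean levels of the family in all 4 groups, and both rose with VCR in either construct. JUN was 4.19-fold higher with VCR in control cells and 3.74-fold higher in PTPN21 cells, and ATF3 2.14-fold and 2.17-fold (ratios of mean FPKM). ATF3 was also lower in PTPN21 cells than in control cells, at 0.524 of the control mean under DMSO and 0.532 under VCR. None of JUNB, JUND, FOS, FOSL1 and BATF3 passed the test in any comparison. In bulk RNA, a change in the number of cells that hold a message and a change in the amount per cell cannot be told apart. Differences below are differences of log2(FPKM + 1) from limma, fitted on 11591 genes in one model of the 4 groups, with p-values adjusted by Benjamini-Hochberg over all of them and a threshold of 0.05. This scale understates the changes of genes near 1 FPKM.

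**Figure D1:**
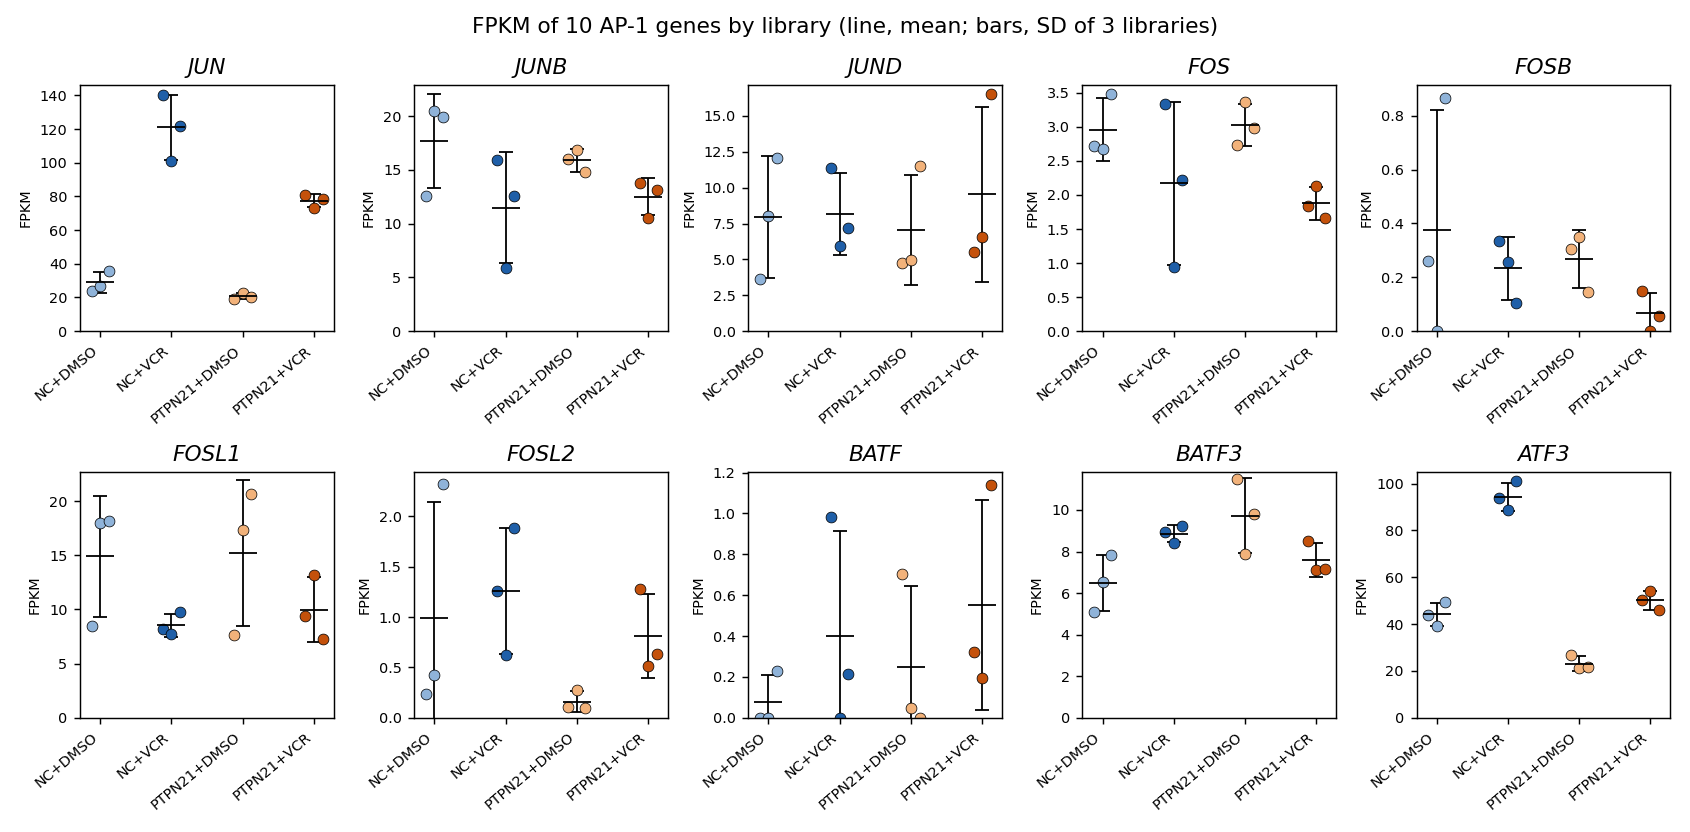
FPKM of the 10 AP-1 genes in each of the 12 libraries, 1 panel per gene with its own axis from 0, with the mean as a line and the SD of 3 libraries as bars. JUN and ATF3 stand higher in every VCR library than in every DMSO library of the same construct, and ATF3 is lower in every PTPN21 library than in every NC library of the same treatment.

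JUN encodes c-Jun, the founding partner of the AP-1 dimer. With NC + DMSO its level was 24.0, 26.7 and 35.8 FPKM, and with NC + VCR 140, 101 and 122 FPKM. With PTPN21 + DMSO it was 19.3, 22.5 and 20.4 FPKM, and with PTPN21 + VCR 80.9, 73.2 and 78.2 FPKM. Every VCR library lay above every DMSO library, also across constructs, and within each treatment all 3 PTPN21 libraries lay below all 3 NC libraries. VCR raised JUN by 2.04 in control cells (standard error, SE, 0.161, adjusted p = 5.29e-06) and by 1.85 in PTPN21 cells (SE 0.161, adjusted p = 1.02e-05). The difference between these responses was -0.18 (95% interval -0.68 to 0.31, adjusted p = 0.733). Against NC, JUN in PTPN21 cells differed by -0.44 under DMSO (adjusted p = 0.114) and by -0.63 under VCR (adjusted p = 0.0703), neither past the threshold. Averaged over both treatments, JUN was lower in PTPN21 cells (difference -0.53, SE 0.114, adjusted p = 0.0149). The difference under VCR passed in 3 of 22 alternative analyses, namely with genes of mean FPKM of at least 5 (adjusted p = 0.0457), with median ratio scaling (0.0485) and without NC + DMSO replicate 3 (0.0313), over a range of 0.0313 to 0.194.

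JUNB, which can oppose JUN in growth control, was at 12.6, 20.5 and 19.9 FPKM with NC + DMSO and at 15.9, 5.87 and 12.6 FPKM with NC + VCR. It was at 16, 16.9 and 14.8 FPKM with PTPN21 + DMSO and at 13.8, 10.5 and 13.1 FPKM with PTPN21 + VCR. In PTPN21 cells the VCR libraries all lay below the DMSO libraries, whereas in control cells the groups overlapped. The differences with VCR were -0.65 in control cells (95% interval -1.28 to -0.01, adjusted p = 0.102) and -0.33 in PTPN21 cells (-0.97 to 0.30, adjusted p = 0.427). The estimate in control cells moved with single libraries, to -0.92 without NC + VCR replicate 1, where it passed (adjusted p = 0.0318), and to -0.27 without NC + VCR replicate 2, where it did not.

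JUND, the most constantly expressed JUN gene in many tissues, varied more between replicates than between groups. Its values were 3.63, 8.05 and 12.1 FPKM with NC + DMSO, 11.4, 5.93 and 7.22 with NC + VCR, 4.72, 4.94 and 11.5 with PTPN21 + DMSO and 5.51, 6.55 and 16.5 with PTPN21 + VCR. All groups overlapped. Its SE of 0.462 in each comparison of 2 groups was the widest among the 7 tested members, so that its response to VCR in control cells, 0.12, had an interval from -0.89 to 1.13.

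Among the FOS genes, FOSL1 (encoding FRA1) and FOS were measured above the minimum and FOSB and FOSL2 were not. FOS, the prototype of a rapidly induced and rapidly destroyed message, was low throughout. It was at 2.72, 2.67 and 3.49 FPKM with NC + DMSO and 3.34, 0.943 and 2.22 with NC + VCR, and at 2.73, 3.36 and 2.99 with PTPN21 + DMSO and 1.84, 2.13 and 1.66 with PTPN21 + VCR. The VCR libraries of PTPN21 cells all lay below their DMSO libraries, and those of control cells overlapped. The differences with VCR were -0.39 in control cells (95% interval -0.97 to 0.19, adjusted p = 0.27) and -0.49 in PTPN21 cells (-1.07 to 0.10, adjusted p = 0.2). In control cells the difference was -0.66 without NC + VCR replicate 1 and -0.08 without NC + VCR replicate 2.

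FOSL1 was the FOS gene with the highest level, at 8.47, 18.0 and 18.2 FPKM with NC + DMSO and 8.19, 7.71 and 9.74 FPKM with NC + VCR. Its values were 7.61, 17.3 and 20.7 FPKM with PTPN21 + DMSO and 9.44, 13.2 and 7.31 FPKM with PTPN21 + VCR. In both DMSO groups replicate 1 was the low library, near the VCR values, so the groups overlapped. The differences with VCR were -0.67 in control cells (95% interval -1.45 to 0.11, adjusted p = 0.163) and -0.49 in PTPN21 cells (-1.27 to 0.29, adjusted p = 0.335). In control cells the difference was -1.01 without NC + DMSO replicate 1, and in PTPN21 cells it was -0.89 without PTPN21 + DMSO replicate 1 and -0.23 without PTPN21 + DMSO replicate 3. None of these passed.

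FOSB ranged from 0 to 0.868 FPKM, and FOSL2 (encoding FRA2) from 0.0949 to 2.32 FPKM. FOSL2 was at 0.11, 0.281 and 0.0949 FPKM with PTPN21 + DMSO and at 1.28, 0.513 and 0.634 FPKM with PTPN21 + VCR, without overlap. In control cells it was at 0.237, 0.429 and 2.32 FPKM with DMSO and at 1.26, 0.625 and 1.88 FPKM with VCR, where NC + DMSO replicate 3 exceeded every VCR library. At these levels a change could not be told from the spread between replicates in control cells.

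The BATF genes encode small AP-1 proteins without an activation domain, which pair with JUN proteins and are best known from T and dendritic cells. BATF ranged from 0 to 1.14 FPKM and was listed at 0 in 4 libraries. BATF3 was at 5.11, 6.54 and 7.81 FPKM with NC + DMSO and at 8.93, 8.41 and 9.23 FPKM with NC + VCR. With PTPN21 + DMSO it was at 11.5, 7.88 and 9.82 FPKM, and with PTPN21 + VCR at 8.53, 7.11 and 7.14 FPKM. The NC + DMSO libraries lay below both the NC + VCR and the PTPN21 + DMSO libraries without overlap, while the other pairs overlapped. BATF3 differed by 0.41 with VCR in control cells (adjusted p = 0.107) and by -0.31 in PTPN21 cells (adjusted p = 0.247), and by 0.52 between PTPN21 and NC under DMSO (adjusted p = 0.114). The difference between the responses, -0.72 (95% interval -1.30 to -0.14), had an adjusted p of 0.273. The scaling of the libraries mattered here. BATF3 passed in control cells with VCR after median ratio scaling (0.76, adjusted p = 0.0106) and quantile normalization (0.79, adjusted p = 0.00842), and for PTPN21 under DMSO after quantile normalization (0.73, adjusted p = 0.0438).

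ATF3, a stress-induced factor that pairs with JUN and often represses, was the only member that differed with both VCR and PTPN21 in every comparison of 2 groups. It was at 43.8, 39.2 and 49.4 FPKM with NC + DMSO and at 93.7, 88.7 and 101 FPKM with NC + VCR. It was at 26.7, 21.1 and 21.6 FPKM with PTPN21 + DMSO and at 50.2, 54.2 and 46.1 FPKM with PTPN21 + VCR. Within each construct the VCR libraries were higher without overlap, and within each treatment the PTPN21 libraries were lower without overlap, so that PTPN21 + VCR came near the level of NC + DMSO. VCR raised ATF3 by 1.08 in control cells (SE 0.134, adjusted p = 0.000127) and by 1.09 in PTPN21 cells (SE 0.134, adjusted p = 0.000141). The difference between the responses was 0.01 (95% interval -0.40 to 0.42, adjusted p = 0.992). ATF3 was lower in PTPN21 cells, with a difference of -0.91 under DMSO (SE 0.134, adjusted p = 0.00679), -0.90 under VCR (SE 0.134, adjusted p = 0.00714) and -0.90 averaged over both (SE 0.0946, adjusted p = 0.000802). The call under DMSO was lost when only the 2 groups compared entered the fit (adjusted p = 0.0645, in a range of 0.00432 to 0.0645). The DMSO and VCR groups each serve in 2 of these comparisons, so the comparisons are not independent of one another.

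**Figure D2:**
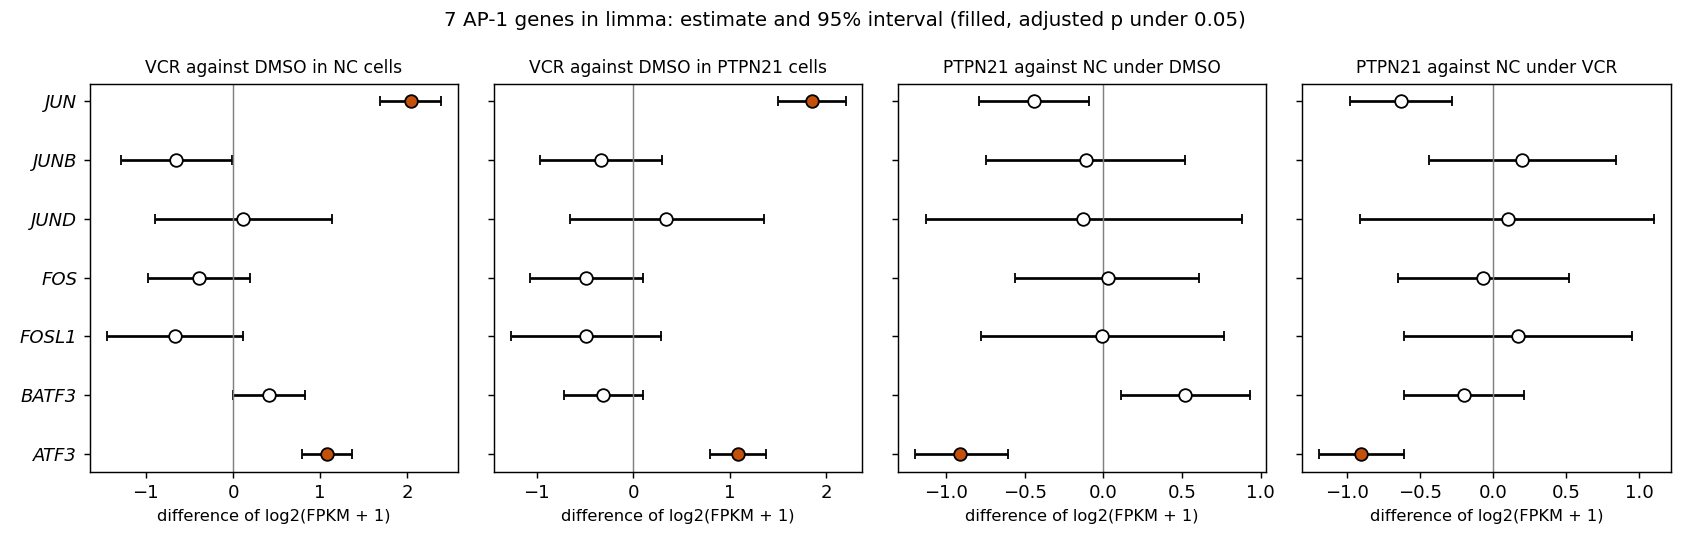
Difference of log2(FPKM + 1) for the 7 tested AP-1 genes in the 4 comparisons of 2 groups, with 95% intervals from limma, filled where the adjusted p was under 0.05. Filled points are JUN and ATF3 for VCR, at 1.08 to 2.04, and ATF3 for PTPN21, at -0.91 and -0.90.

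Among all 11591 genes, 7.91% rose and 28.3% fell with VCR in control cells, and 9.22% rose and 19.3% fell with VCR in PTPN21 cells. Of the 7 tested members, 2 rose and none fell in each. At an unadjusted p under 0.05, BATF3 (0.0498) was also higher and JUNB (0.0467) lower in control cells, and no further member was called in PTPN21 cells. That cutoff called 5379 of all 11591 genes in control cells and 4628 in PTPN21 cells. Between PTPN21 and NC, 2.65% of genes were higher and 3.69% lower under DMSO, and 1.00% and 0.820% under VCR, with ATF3 the 1 member lower in each. Averaged over treatments, the background was 4.50% higher and 4.78% lower, with 2 members lower. The responses to VCR differed between constructs in 0.129% of genes and in no member. No member's adjusted p was below 0.273. An unadjusted p under 0.05 was found for 1 of the 7, BATF3 (0.0192), beside 1624 of all 11591 genes. Groups free of overlap were common. With VCR in control cells 10.2% of genes were higher in all 3 libraries, and JUN, ATF3 and BATF3 among the tested members were so. In PTPN21 cells 17.0% were higher, JUN and ATF3 among them, and 33.3% lower, JUNB and FOS among them. Between PTPN21 and NC, 21.9% were lower under DMSO (JUN and ATF3), 11.5% higher under DMSO (BATF3) and 10.2% lower under VCR (JUN and ATF3).

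The median gene moved by -0.36 with VCR in control cells and by -0.17 in PTPN21 cells. Relative to that median, JUN was higher by 2.40 and 2.02, and ATF3 by 1.45 and 1.26. With PTPN21 the median gene moved by -0.14 under DMSO and 0.03 under VCR, and ATF3 relative to it by -0.77 and -0.93. JUNB, at -0.65 with VCR in control cells, was at -0.29 relative to the median. The share of higher genes among those called depended on scaling, at 21.9% for VCR in control cells as deposited and 56.5% after median ratio scaling, and at 32.3% and 51.2% in PTPN21 cells. For PTPN21 it was 41.8% under DMSO as deposited, 76% after median ratio scaling and 21% after rescaling to a fixed sum (TPM). The VCR calls of JUN and ATF3 kept their direction and passed in 22 of 22 alternatives in each construct.

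The mixture of AP-1 messages differed between the DMSO and VCR libraries. FPKM is scaled by gene length, so levels can be set side by side within a library. The 10 genes summed to 124 ± 24.7 FPKM (SD, n = 3) with NC + DMSO, 256 ± 33.0 with NC + VCR, 95.4 ± 6.14 with PTPN21 + DMSO and 171 ± 2.48 with PTPN21 + VCR. JUN made up 21.9 to 23.9% of that sum with NC + DMSO and 20 to 23.8% with PTPN21 + DMSO. With VCR it made up 45.9 to 49.2% in control cells and 43.7 to 47.1% in PTPN21 cells. The FOS genes together averaged 15.1% with NC + DMSO and 4.74% with NC + VCR, and 19.3% and 7.49% in PTPN21 cells. Shares of a sum that holds JUN and ATF3 move with those genes too, and were not tested. The FOS genes summed to 19.2 ± 6.79 FPKM with NC + DMSO and 12.2 ± 2.35 FPKM with NC + VCR (SD, n = 3). In PTPN21 cells the FOS genes summed to 18.6 ± 6.95 and 12.7 ± 3.10 FPKM, DMSO first. The libraries overlapped in both constructs. Among the JUN genes alone, JUN made up 48.3 to 59.7% with NC + DMSO and 83.6 to 89.6% with NC + VCR, and 43.7 to 50.8% and 72.5 to 81.1% in PTPN21 cells.

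**Figure D3:**
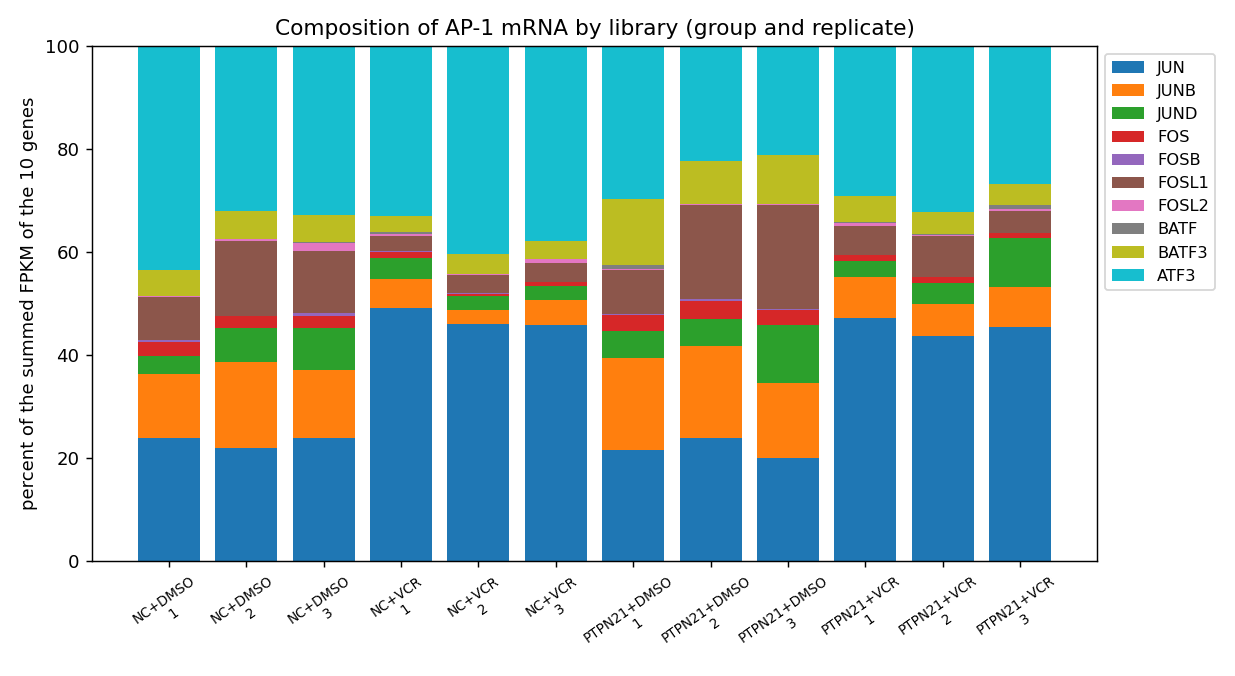
Percent of the summed FPKM of the 10 AP-1 genes contributed by each gene, 1 bar per library (group and replicate number). The JUN section spans 20 to 23.9% of each DMSO bar and 43.7 to 49.2% of each VCR bar.

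The order of the levels changed at the top. With NC + DMSO, ATF3 (44.1 FPKM) led JUN (28.9), and with PTPN21 + DMSO their libraries overlapped (23.1 and 20.7). With VCR JUN led ATF3 without overlap, at 121 against 94.3 FPKM in control cells and 77.5 against 50.2 in PTPN21 cells. JUNB followed them in all 4 groups and was apart from JUN or ATF3 above it each time. The neighbours below, JUNB, FOSL1, JUND and BATF3, overlapped with one another in sequence. FOS came seventh in every group, below and apart from these. FOSL2, FOSB and BATF followed, and only with NC + VCR did libraries of FOS and FOSL2 overlap. The ratio of ATF3 to JUN was 1.38 to 1.82 with NC + DMSO, 0.67 to 0.875 with NC + VCR, 0.936 to 1.39 with PTPN21 + DMSO and 0.59 to 0.741 with PTPN21 + VCR.

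**Figure D4:**
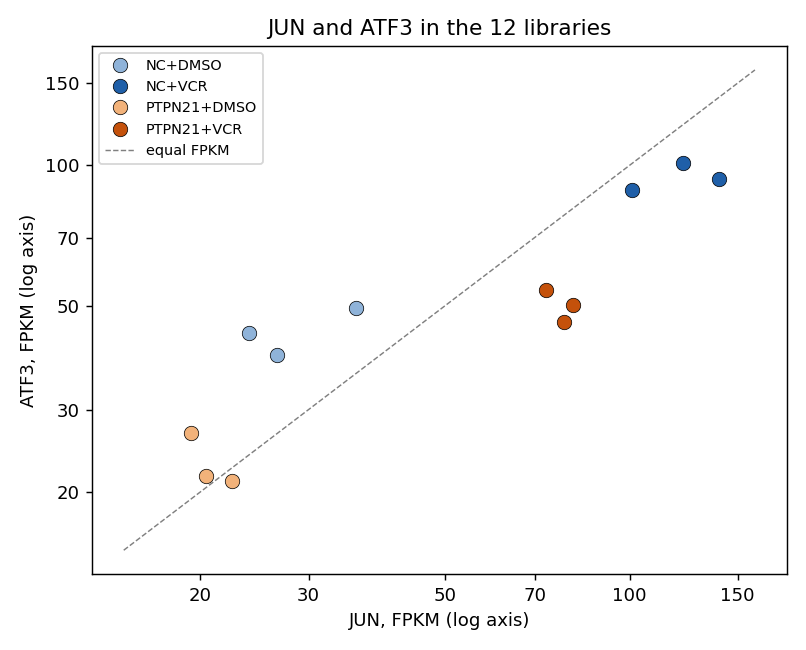
FPKM of ATF3 against JUN in the 12 libraries on log axes, with the dashed line at equal FPKM. The 6 VCR libraries lie to the right and below the line, and the 4 groups form 4 separate sets of points.

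The genes whose profile over the 12 libraries was most like that of JUN were NES, PLAUR and TSC22D1. Likeness was the root mean square difference of log2(FPKM + 1), centred on each gene's mean, and was 0.21, 0.23 and 0.25 against a deviation of 1.02 for JUN itself. NES, which encodes the intermediate filament nestin, was at 2.13 and 14.1 FPKM in control cells and 1.41 and 8.32 FPKM in PTPN21 cells (means, DMSO first). PLAUR, which encodes the urokinase receptor, was at 25.8 and 106, and 18.4 and 80.6 FPKM. Closest to ATF3 were PTMS (0.28), SDC4 (0.28) and PRDM9 (0.30), against a deviation of 0.72 for ATF3. Among the members, FOS and JUNB differed by 0.23 and ATF3 and JUN by 0.50.

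Of 31 genes with known AP-1 sites, 16 were tested. CD44 and DUSP5 averaged under 1 FPKM with DMSO and reached the minimum for testing only through the VCR libraries, so they are left out of the counts. Of the other 14, 8 (57.1%) rose and 1 (7.14%) fell with VCR in each construct, beside 7.91% and 28.3% of all genes in control cells and 9.22% and 19.3% in PTPN21 cells. Their median was 1.06 in control cells and 1.38 in PTPN21 cells, beside -0.36 and -0.17 for all genes. The list was chosen with earlier results of these data known, so its shares and medians are a description and not a test of AP-1 targets. CD44, an adhesion receptor, averaged 0.438 ± 0.412 FPKM with NC + DMSO and 20.1 ± 8.85 with NC + VCR (SD, n = 3). In PTPN21 cells it averaged 0.128 ± 0.127 and 29 ± 4.39 FPKM. TIMP1, an inhibitor of matrix metalloproteinases, rose by 2.66 and 2.11, and VIM, which encodes vimentin, by 2.58 and 2.25. PHLDA1 rose in PTPN21 cells by 2.58 (SE 0.858, adjusted p = 0.0413). Its libraries overlapped, at 0.478 to 2.54 FPKM with PTPN21 + DMSO and 2.5 to 21 FPKM with PTPN21 + VCR. In control cells PHLDA1 differed by 0.85 (adjusted p = 0.458), and its responses differed by 1.73 (adjusted p = 0.532). CCND1, which encodes cyclin D1, fell by 1.35 in control cells (adjusted p = 0.000129) and decreased by 1.75 in PTPN21 cells (adjusted p = 2.18e-05). Between PTPN21 and NC, TIMP1 (1.31, adjusted p = 0.00708) and VIM (0.57, adjusted p = 0.0236) were higher and PLAUR was lower (-0.47, adjusted p = 0.0378) under DMSO, with a list median of -0.23. None passed under VCR. There 3 of all 16 tested, CD44 and DUSP5 included, had an unadjusted p under 0.05, beside 1980 of all 11591 genes. Averaged over treatments, TIMP1 and VIM were higher and CCND1 and PLAUR lower.

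**Figure D5:**
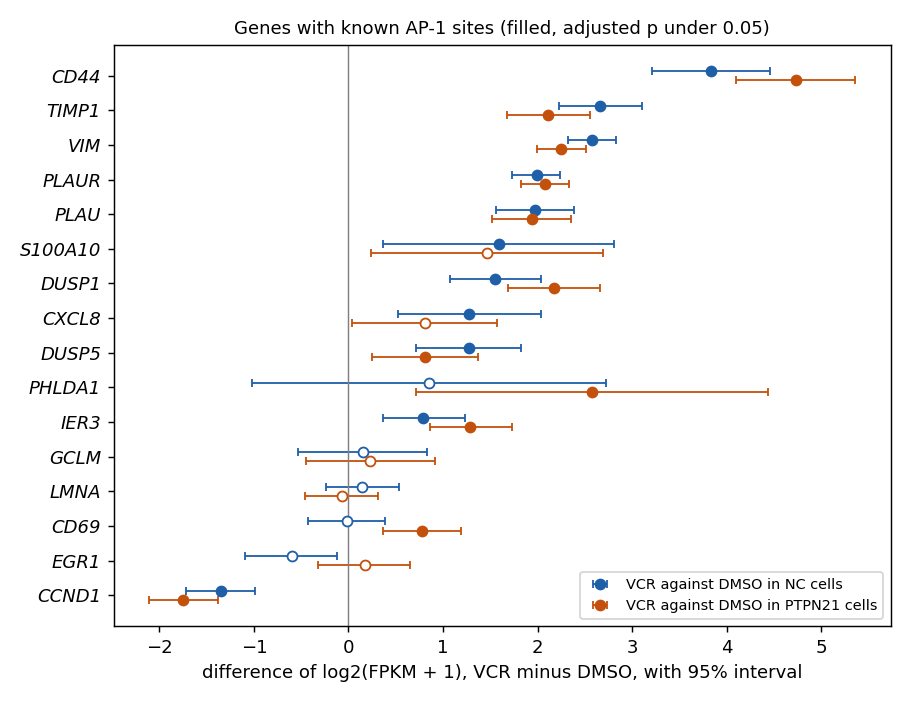
Difference of log2(FPKM + 1) with VCR for the 16 tested genes with known AP-1 sites, in control cells (blue) and PTPN21 cells (orange), with 95% intervals from limma, filled where the adjusted p was under 0.05. In each construct 10 points are filled above 0, CD44 and DUSP5 among them, which were tested only because of their VCR libraries, and 1, CCND1, is filled below 0.

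Other basic leucine zipper factors, which can share partners with AP-1, were called in both directions. Of 36, 29 were tested, and CREB5 reached the minimum only through the VCR libraries, with means of 0.246 and 0.169 FPKM under DMSO and 1.96 and 3.05 FPKM under VCR. Of the other 28, with VCR 5 (17.9%) rose and 5 (17.9%) fell in control cells, beside 7.91% and 28.3% of all genes, with a median of 0.04. In PTPN21 cells 4 (14.3%) rose and 3 (10.7%) fell, beside 9.22% and 19.3% of all genes, with a median of -0.04. CREM, a cyclic AMP response factor, rose by 1.24 (adjusted p = 0.00157) and 1.65 (adjusted p = 0.000279), and NFE2L2, the oxidative stress factor NRF2, by 1.01 and 1.51. NFE2, an erythroid and megakaryocytic factor, fell by 2.95 in control cells (adjusted p = 1.43e-06) and decreased by 2.23 in PTPN21 cells (adjusted p = 1.15e-05), from means of 146 and 132 FPKM. ATF7, a partner of JUN, fell by 1.37 (adjusted p = 0.017) and decreased by 1.45 (adjusted p = 0.0159). CREB3L2 fell in control cells (-1.74, adjusted p = 0.000576) and differed by -0.62 in PTPN21 cells (adjusted p = 0.107). Its responses differed by 1.12 (adjusted p = 0.24). JDP2 fell by 1.46 in PTPN21 cells (adjusted p = 0.0187), from 9.43 ± 2.01 to 2.90 ± 1.36 FPKM (SD, n = 3). In control cells JDP2 differed by -0.67 (adjusted p = 0.215), and its responses differed by -0.79 (adjusted p = 0.542). Between PTPN21 and NC, XBP1 was higher under DMSO (1.03, adjusted p = 0.0139) and CREB3L2 under VCR (1.47, adjusted p = 0.0221).

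Of 32 kinases and factors upstream of AP-1, 26 were tested, among them MEF2D, which averaged under 1 FPKM in one treatment. Of the other 25, with VCR 2 (8%) rose and 5 (20%) fell in control cells (median -0.43) and 2 (8%) rose and 3 (12%) fell in PTPN21 cells (median 0.08), beside the shares of all genes given above. MEF2A, a factor that binds the JUN promoter, rose by 1.62 (adjusted p = 0.00102) and 1.03 (adjusted p = 0.0162), and ELK3 rose in both. RPS6KA1, BRAF and MAP2K7, which encodes a kinase of JNK, fell in both. Of 11 genes for the turnover of JUN and FOS proteins and messages, 10 were tested. In control cells 1 rose and 3 fell (10% and 30%), close to the 7.91% and 28.3% of all genes. In PTPN21 cells 1 rose and 1 fell (10% each), beside 9.22% and 19.3% of all genes. FBXW7, which encodes part of a ubiquitin ligase for JUN, fell by 1.82 with VCR in control cells (adjusted p = 8.29e-05), was lower in PTPN21 cells than in NC cells under DMSO (-1.21, adjusted p = 0.0124), and differed by 0.25 with VCR in PTPN21 cells (adjusted p = 0.417). Its responses differed between constructs by 2.07 (adjusted p = 0.0218), the only such call in these lists.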

How the data were processed

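RNA of 12 libraries was sequenced. Per the submitters' processing notes, reads were processed with fastp and Bowtie2, and mm10, a mouse build, is named there although the table lists human Ensembl genes. The program that counted fragments and the annotation are not given in the sources used here. The authors deposited 1 table of FPKM values and its columns were matched to the samples by title, with 0 value columns unmatched.

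Genes with a mean of at least 1 FPKM were tested on log2(FPKM + 1) with limma 3.58.1 in R 4.3.3, with an intensity trend, 1 mean per group over all 12 libraries and Benjamini-Hochberg adjustment (threshold 0.05). Since the values are not counts, no count test was run. The script was tested on simulated data. Levels, shares and promoter letters were described in Python 3.11.15. Gene positions were taken from GENCODE release 29 and promoter sequences from RefSeq (GRCh38.p14).

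The members and gene lists were chosen with earlier results of these data known. All 10 members are named, with up to 3 rising and 3 falling genes per other list by size of change, and the 3 genes most like each called member. The erythroid genes and ATF4 were named after their values were seen. The methods mention 3 replicates per group and independent experiments done 3 times, without saying whether these libraries came from separate cultures. The p-values therefore measure the spread between these libraries, which may be technical. Depth was estimated and not stated, and no interval of counting error was drawn from it. Alternatives were another pseudocount, other filters and scalings, fits without the trend or with robust moderation, the replicate number as a block, 2 groups alone, and leaving out each library. A result that needs a gene withheld from this work is not reported here.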

Additional observations from a re-analysis of the deposited data

How the results depend on the processing

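JUN and ATF3 kept their rise with VCR in both constructs under all 22 alternatives, and ATF3 its lower level with PTPN21 under VCR under all 22. Over the 7 tested members, 377 of 400 values under the planned settings and 456 of 504 with a library left out kept direction and side of the threshold, 17 and 46 changed sign, and causes were not tested. The sign changes concerned differences that passed no test. After median ratio scaling, the PTPN21 difference under DMSO was 0.08 for JUNB, 0.05 for JUND and 0.18 for FOSL1, that averaged over treatments was 0.07 for JUND and 0.05 for FOS, and the interaction was -0.02 for FOSL1 and -0.21 for ATF3. After quantile normalization the same values were 0.05, 0.07 and 0.17, then 0.08 and 0.03, and -0.06 for ATF3, and FOS differed by 0.04 with VCR in control cells. After TPM scaling, FOS differed by -0.09 under DMSO, and JUNB by -0.05 and FOSL1 by -0.01 averaged over treatments.

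Counts of called genes moved as follows. With only the 2 groups compared, 2674 genes (in place of 4192) were called for VCR in control cells, 40 (735) for PTPN21 under DMSO and 117 (211) under VCR. Without a filter, PTPN21 gave 177 under DMSO, 118 under VCR, 566 averaged (1076) and 8 for the interaction (15). With a mean FPKM of at least 5 it gave 344 under VCR and 8 for the interaction, with median ratio scaling 130 under VCR, and without the trend 321, 72 and 9 under DMSO, under VCR and for the interaction. With the replicate block, counts were 242, 74, 665 and 8 under DMSO, under VCR, averaged and for the interaction, and no call of a member changed. The 18 correlations of deviations between same-numbered libraries were -0.145 to 0.0583, with 0 above 0.1, so no strong shift over all genes was shared by number. These values cannot show whether same-numbered libraries were prepared together.

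Leaving out each library in turn gave 54 to 1347 genes for PTPN21 under DMSO, lowest without PTPN21 + DMSO replicate 1 and highest without NC + DMSO replicate 2. It gave 43 to 357 under VCR (lowest without PTPN21 + VCR replicate 2, highest without NC + DMSO replicate 3), 535 to 1450 averaged and 7 to 30 for the interaction. For members it gave, under VCR against DMSO, -0.29 to 0.46 (JUND, control cells) and -0.10 to 0.71 (JUND, PTPN21 cells). For PTPN21 under DMSO it gave -0.33 to 0.00 (JUNB), -0.54 to 0.22 (JUND), -0.03 to 0.12 (FOS) and -0.34 to 0.40 (FOSL1). Under VCR it gave -0.18 to 0.47 (JUNB), -0.35 to 0.37 (JUND), -0.38 to 0.20 (FOS) and -0.03 to 0.36 (FOSL1). Averaged, it gave -0.15 to 0.18 (JUNB), -0.24 to 0.16 (JUND), -0.18 to 0.11 (FOS) and -0.09 to 0.28 (FOSL1). For the interaction it gave -0.07 to 0.58 (JUNB), -0.22 to 0.63 (JUND), -0.41 to 0.17 (FOS), -0.22 to 0.52 (FOSL1) and -0.08 to 0.11 (ATF3).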

Other observations

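ATF4, a basic leucine zipper factor of the amino acid and endoplasmic reticulum stress response and a known inducer of ATF3, was listed at one of 2 levels. How fragments were assigned to this gene is not given in the sources used here, and whether the levels come from the cells or from the assignment was not tested. It was at 26.3, 302 and 246 FPKM with NC + DMSO and at 314, 312 and 336 FPKM with NC + VCR. With PTPN21 + DMSO it was at 29.8, 32.7 and 330 FPKM, and with PTPN21 + VCR at 26.0, 26.5 and 29.1 FPKM. Libraries of the same group thus differed about as much as groups did, within both DMSO groups. In the NC + DMSO library with low ATF4, ATF3 was at 43.8 FPKM, beside 39.2 and 49.4 FPKM in those with high ATF4. In the PTPN21 + DMSO library with high ATF4, ATF3 was at 21.6 FPKM, beside 26.7 and 21.1 FPKM in the others. With VCR, ATF3 was at 88.7 to 101 FPKM in the NC libraries, all with high ATF4. It was at 46.1 to 54.2 FPKM in the PTPN21 libraries, all with low ATF4. Whether ATF3 follows ATF4 was not tested. ATF4 passed no comparison in limma. Between PTPN21 and NC it differed by -3.51 under VCR (adjusted p = 0.0723) and by -2.19 averaged over treatments (adjusted p = 0.0531). With VCR in control cells the adjusted p was 0.266.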
